A study of Mus musculus with 2 samples.

Results

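Cytosolic ribosomal protein genes were compared between mouse livers infected with a PDK4 adenovirus and livers infected with the empty vector. The members were all genes whose only symbol in the array annotation starts with Rpl or Rps followed by a digit, or is Rplp0, Rplp1, Rplp2 or Rpsa, without the Rps6k kinases. This rule found 51 of 18193 named genes, on 107 of 45101 probe sets (a probe set is a group of short probes for the same transcript). Of the 107 probe sets, 40 end in _x_at and 3 in _s_at, the endings for probes that can match several transcripts. Such endings were also carried by 16 of the 51 probe sets that stand for a gene below. The rule took 25 Rps symbols, named for the small subunit, and 26 Rpl symbols, named for the large subunit. The 25 include Rps19bp1, which encodes a protein that binds Rps19 and is no ribosomal subunit, and Rps15a-ps6 and Rps4l, which RefSeq lists as transcribed pseudogenes. Rplp1 was not analysed here.

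The mice were of strain C57BL/6J and 2 months old, and every mouse received adenovirus, at 1000000000 plaque-forming units by the tail vein. The Ad-PDK4 group was infected with the PDK4 vector and the Ad-control group with the same kind of vector without it, and livers were taken on day 3. Livers of 3 mice (Ad-PDK4) and of 4 mice (Ad-control) were combined, and 10 ug RNA of each pool was labelled for 1 array. Each group is thus n = 1 pool, uninfected liver is not among the groups, and no p-value, SD between mice or SE can be given. Pdk4 itself gave a signal of 177 in the Ad-PDK4 pool and 234 in the Ad-control pool on its 1 probe set, a log2 difference of -0.39. No source used here says whether that probe set reads the vector's transcript, and the directions below take the labels as they stand.

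Ribosomal proteins assemble with ribosomal RNA into the small subunit, which reads the mRNA, and the large subunit, which joins the amino acids. Their mRNAs are among the most abundant of any cell, and in mammals most of them start with a run of pyrimidines, the terminal oligopyrimidine tract, through which mTORC1 signalling controls their translation. In liver they serve the synthesis of plasma proteins. Several of the proteins have a paralog, a related protein from another gene that can take the same place in the ribosome. In bulk liver, fewer cells of a type and less RNA per cell cannot be told apart.

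Promoter sequences are shown for Rpl22l1, Rpl14 and Rps27, the 3 members that lay 1.5-fold or more apart between the pools. Rpl22, the partner of Rpl22l1, is shown too. Also shown are 3 of the brightest members of each subunit with an entry in the RefSeq promoter table (mouse build GRCm38.p6). Rps29 and Rps14 were brighter than the small subunit members shown and are not among them. Each sequence runs 5′ to 3′ on the gene's strand, from 70 bases before the annotated start to 30 bases after it. Capitals mark oligopyrimidine tracts, counted as a C followed by 6 or more C or T. Rpl22 has 2 entries.
Rpl22l1, chr3:28805438-28805537, plus strand: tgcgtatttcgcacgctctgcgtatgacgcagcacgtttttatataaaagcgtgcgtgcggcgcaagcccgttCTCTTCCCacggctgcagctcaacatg
Rpl14, chr9:120571447-120571546, plus strand: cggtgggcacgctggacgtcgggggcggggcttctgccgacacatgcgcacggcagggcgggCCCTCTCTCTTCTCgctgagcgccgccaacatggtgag
Rps27, chr3:90213619-90213718, minus strand: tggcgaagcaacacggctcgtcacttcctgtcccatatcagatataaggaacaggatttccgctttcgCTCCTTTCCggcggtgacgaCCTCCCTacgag
Rpl22, chr4:152325656-152325755, plus strand: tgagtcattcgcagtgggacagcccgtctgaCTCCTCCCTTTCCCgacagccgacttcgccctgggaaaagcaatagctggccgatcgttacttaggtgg
Rpl22, chr4:152324366-152324465, plus strand: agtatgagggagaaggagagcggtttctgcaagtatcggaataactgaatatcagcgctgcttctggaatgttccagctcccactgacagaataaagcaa
Rpl38, chr11:114668510-114668609, plus strand: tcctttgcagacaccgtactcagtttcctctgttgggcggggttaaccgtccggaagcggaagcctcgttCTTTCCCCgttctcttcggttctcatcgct
Rpl37a, chr1:72711190-72711289, plus strand: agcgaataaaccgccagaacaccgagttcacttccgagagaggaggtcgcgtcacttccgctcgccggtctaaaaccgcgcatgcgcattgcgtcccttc
Rpl7a, chr2:26910737-26910836, plus strand: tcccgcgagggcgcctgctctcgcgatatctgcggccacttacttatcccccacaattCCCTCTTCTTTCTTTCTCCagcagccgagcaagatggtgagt
Rps2, chr17:24719993-24720092, plus strand: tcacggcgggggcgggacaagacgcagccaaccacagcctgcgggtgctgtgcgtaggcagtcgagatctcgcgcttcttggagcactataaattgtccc
Rps28, chr17:33824533-33824632, minus strand: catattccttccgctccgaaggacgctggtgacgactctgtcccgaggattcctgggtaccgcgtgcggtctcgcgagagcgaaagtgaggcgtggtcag
Rps3a1, chr3:86142639-86142738, minus strand: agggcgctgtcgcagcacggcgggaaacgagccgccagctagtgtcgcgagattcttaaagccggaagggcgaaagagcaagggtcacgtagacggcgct

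Of the 51 members, 44 had an entry, with 52 entries in all. A tract lay in this 100-base window in 36 of the 52 member entries (69.2%), against 41.3% of all 32851 entries. In Rpl22l1 it started at base 4 after the start, and in Rpl38 at base 1. In the other windows shown with a tract, the first began before the annotated start. It began at -2 in Rps27, -8 in Rpl14, -12 in Rpl7a and -39 in Rpl22. Rps27 had another at base 19. The share counts tracts anywhere in the window, also those away from the start. No tract was found in the windows shown for Rpl37a, Rps2, Rps28 and Rps3a1, nor in the other of Rpl22, which says only that these letters are not there. In the full 300-base entries, searched on both strands, CCGGAAG (the core of ETS factor sites) lay in 21 of 52 member entries (40.4%) and in 8.86% of all entries. GGGCGG (GC box) lay in 53.8% of member entries and 35.7% of all, and AAGATGGC (YY1) in 7.69% and 2.75%. TATAAA was in 11.5% of member entries and 13.6% of all, and CACGTG (E-box) in 9.62% and 7.15%. These motifs do not contain each other, and a match is a description of letters.

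Ribosomal protein transcripts were nearly level between the pools. Signals were compared as log2 of the Ad-PDK4 signal minus log2 of the Ad-control signal, centred on the median of the 20151 probe sets above a floor on both arrays, and each gene was read from the probe set that was brightest on average (mean log2 signal). The floor was the median signal of each array, 99.9 for Ad-PDK4 and 93.4 for Ad-control. Of the 51 members, 47 were above it on both arrays and 4 on neither. Among the 47, 2 were at least 1.5-fold higher in the Ad-PDK4 pool, where 9.21% of all 10389 measured genes were, and 1 was at least 1.5-fold lower, where 5.2% of all genes were. At 2-fold the counts were 0 higher (2.7% of all genes) and 1 lower (0.732%). The other 44 lay within 1.5-fold, and 33 lay within 0.2 log2 units of 0. The median log2 difference of the members was -0.0085, beside 0.015 over all measured genes, and it was 0.083 with loess centring and 0.097 with quantile normalization, so its sign depends on the scaling. Relative to the poly-A spike-in controls (median -0.54) or the hybridization controls (median -0.26) it would be above 0, so no direction is given for the family.

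**Figure D1:**
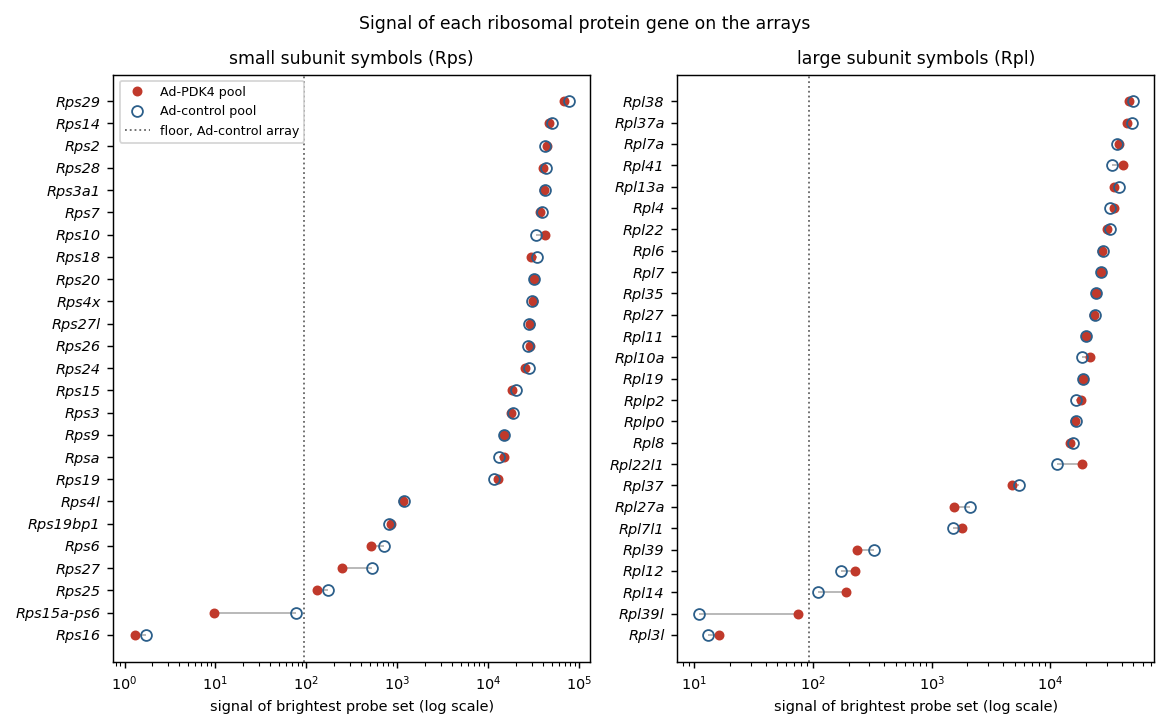
Signal of the brightest probe set of each of the 51 genes (x axis, log scale) in the Ad-PDK4 pool (filled) and the Ad-control pool (open), small subunit symbols on the left and large on the right; the dotted line is the floor of the Ad-control array, 93.4. The markers of most genes overlap above a signal of 10000, and Rpl22l1 is the bright gene with the widest gap.

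The probe sets that read these genes were mostly bright, and the bright ones differed least. On both arrays 36 of the 51 genes had a signal of 10000 or more. The median signal over the 51 genes was 19871 on the Ad-PDK4 array and 20121 on the Ad-control array. The 36 bright genes had log2 differences with an SD across genes of 0.17, a range of -0.21 to 0.72 and a median of 0.0056. Without Rpl22l1 the SD of the other 35 was 0.13 and the highest was 0.32. All 533 genes of that brightness had an SD of 0.25 and a median of -0.11, and 3.38% of them were 1.5-fold apart in either direction. The 7 measured members with a mean signal under 1000 spread more, with an SD of 0.62, beside 0.51 for all 6424 measured genes as dim. Signals of different probe sets do not rank transcripts by amount, since probes bind with different strength.

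**Figure D2:**
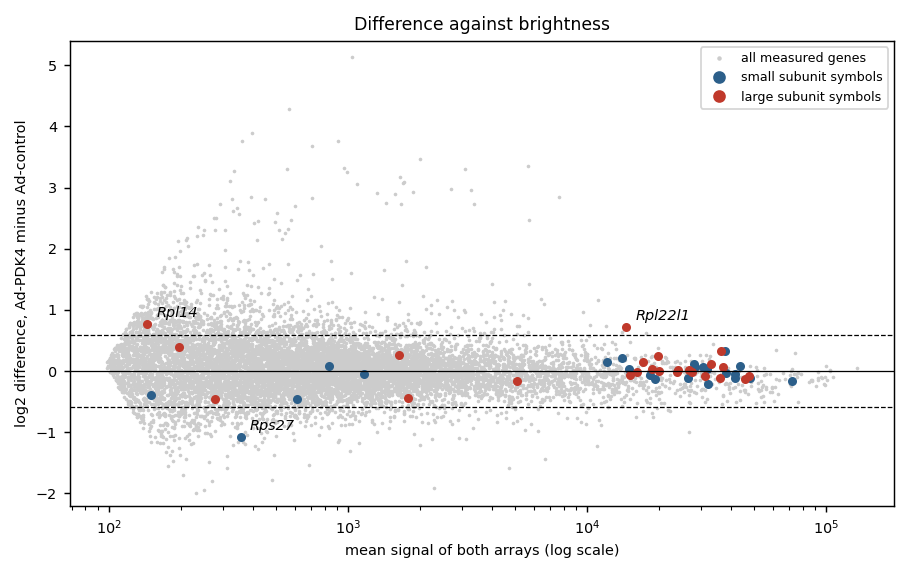
Log2 difference, Ad-PDK4 minus Ad-control (y axis), against the mean signal of both arrays (x axis, log scale) for all measured genes (grey), small subunit symbols (blue) and large subunit symbols (red); dashed lines mark 1.5-fold. Members at 10000 or more lie close to 0 apart from Rpl22l1 at 0.72, and the dim members scatter, with Rpl14 at 0.77 and Rps27 at -1.08.

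Rpl22l1 was the bright member that differed. It encodes the paralog of Rpl22, an RNA-binding protein of the large subunit, and in mouse cells Rpl22 is known to repress Rpl22l1. Its 1 probe set gave a signal of 18630 in the Ad-PDK4 pool and 11433 in the Ad-control pool, 1.65-fold higher (log2 difference 0.72). This was the highest but 3 among the 533 genes with a mean signal of 10000 or more, of which 1.13% were at least 1.5-fold higher. Rpl22 gave 30105 in the Ad-PDK4 pool and 32036 in the Ad-control pool, a log2 difference of -0.075, and its other 2 probe sets gave -0.052 and -0.27. The difference of the paralog thus exceeded that of Rpl22 by 0.79 log2 units. Where a gene has several probe sets, these disagreed with a pooled SD of 0.35 over 4326 genes of the array, which leaves out error shared by a whole array and the variation between mice. The value of Rpl22l1 stayed past 1.5-fold without centring, with loess centring and with quantile normalization, and no other probe set of the gene was there to compare.

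The brightest probe sets of the other measured paralog symbols lay within 1.5-fold. Rps4l is counted here by its symbol, though RefSeq lists it as a transcribed pseudogene. Rps27l, the paralog of Rps27 and a known p53 target, gave 28763 in the Ad-PDK4 pool and 27833 in the Ad-control pool (0.062), and its 3 probe sets lay between 0.0089 and 0.084. Rpl7l1, related to Rpl7, gave 1789 in the Ad-PDK4 pool and 1514 in the Ad-control pool (0.26). Its other probe sets gave 0.26 and, on the dimmest, 0.61, so all 3 were higher in the Ad-PDK4 pool. Rps4l gave 1144 in the Ad-PDK4 pool and 1191 in the Ad-control pool (-0.044), and its X-linked relative Rps4x 31234 and 30175 in the same order (0.064). Rpl39l, a paralog known from testis, and Rpl3l, known from muscle, were under the floor on both arrays, Rpl39l at 74.8 in the Ad-PDK4 pool and 11.0 in the Ad-control pool and Rpl3l at 16.1 and 13.2.

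Rpl14 and Rps27 were the other genes past 1.5-fold, both on 1 dim probe set. Rpl14, a large subunit protein, gave 188.6 in the Ad-PDK4 pool and 111.6 in the Ad-control pool (0.77, 1.71-fold higher), signals that lie close to the floor. With the floor at the 70th percentile it was under the floor on each array and could not be read. Rps27, a zinc finger protein of the small subunit, gave 244.6 in the Ad-PDK4 pool and 521.5 in the Ad-control pool (-1.08, 2.11-fold lower). Among genes with a mean signal under 1000, 12.7% passed 1.5-fold upward and 6.55% downward. Among the other measured members with a mean signal under 1000 were Rps6, the target of the ribosomal kinases downstream of mTORC1 (519.3 in the Ad-PDK4 pool, 719.2 in the Ad-control pool, -0.46), and Rpl39, which lines the exit tunnel (235.2 and 327.7 in the same order, -0.46). Rps25 gave 130.4 in the Ad-PDK4 pool and 173.1 in the Ad-control pool (-0.39), and Rpl12 225.2 and 172.6 in the same order (0.40). Rps19bp1, the remaining one, gave 858.4 in the Ad-PDK4 pool and 817.2 in the Ad-control pool and lay near 0 (0.086).

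Small subunit proteins lay close to 0 where their signal was bright. The median over 23 measured Rps symbols was -0.044, with 0 higher and 1 lower by 1.5-fold, and it was 0.063 with loess centring. Rps10 was the highest, with 41906 in the Ad-PDK4 pool and 33861 in the Ad-control pool (0.32), but its 5 measured probe sets ran from -0.53 to 0.32. Rpsa, also known as the laminin receptor, gave 15054 in the Ad-PDK4 pool and 13166 in the Ad-control pool (0.21), and its other probe set was under the floor on both arrays. Rps19, the gene most often mutated in human Diamond-Blackfan anemia, gave 12684 in the Ad-PDK4 pool and 11578 in the Ad-control pool (0.15). None of these reached 1.5-fold. Rps26 (0.11), Rps19bp1 (0.086) and Rps2 (0.082) came next. On the low side after the dim Rps27, Rps6 and Rps25 stood Rps18 (-0.21), Rps29 (-0.17) and Rps15 (-0.13). Other probe sets went the other way, at 0.0039 and 0.13 for Rps18 and at 0.29 for Rps15. Rps29 was the brightest member, at 67670 in the Ad-PDK4 pool and 76751 in the Ad-control pool, and its 3 probe sets lay on both sides of 0. The bright Rps14 (-0.12), Rps28 (-0.11), Rps3a1 (-0.048) and Rps7 (-0.033) differed by less than the probe set SD, as did the bright Rps symbols named before them. So did Rps3, which sits where the mRNA enters the ribosome (-0.061), and Rps24 (-0.11), Rps20 (0.030) and Rps9 (0.036). The probe set of Rps16 had signals of 1.3 in the Ad-PDK4 pool and 1.7 in the Ad-control pool, both under the floor, as did that of Rps15a-ps6 at 9.6 and 77.2 in the same order.

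Large subunit proteins had a median of 0.0056 over 24 measured Rpl symbols, with 2 higher (Rpl22l1 and Rpl14) and 0 lower by 1.5-fold. After these, Rpl12 (0.40), Rpl41 and Rpl10a were the highest subunit proteins. Rpl41, a very short basic peptide, gave 40686 in the Ad-PDK4 pool and 32817 in the Ad-control pool (0.32), and its other measured probe set gave 0.058. Rpl10a gave 21470 in the Ad-PDK4 pool and 18353 in the Ad-control pool (0.24) on 1 probe set. The lowest were Rpl39 and Rpl27a, of which Rpl27a gave 1531 in the Ad-PDK4 pool and 2102 in the Ad-control pool (-0.44). Rpl37 (-0.17), Rpl37a (-0.12), Rpl13a (-0.11) and Rpl38 (-0.080) followed. Other probe sets of Rpl13a went the other way, at 0.15, 0.60 and 0.061, and those of Rpl37a gave -0.13 and 0.22. Rpl38, which in mouse embryos is known to favour translation of Hox mRNAs, gave 46249 in the Ad-PDK4 pool and 49377 in the Ad-control pool. The stalk, which recruits translation factors, was read by Rplp0 (16011 in the Ad-PDK4 pool and 16290 in the Ad-control pool, -0.010) and Rplp2 (18021 and 16358 in the same order, 0.15). Rpl11, which can bind and inhibit MDM2 when ribosome assembly fails, gave 19871 in the Ad-PDK4 pool and 20121 in the Ad-control pool (-0.0035). Rpl4 and Rpl35, at or near the exit tunnel, gave 0.12 and 0.023. Rpl19 (0.026), Rpl6 (-0.014), Rpl7 (0.015), Rpl7a (0.074), Rpl8 (-0.067) and Rpl27 (-0.0085) lay close to 0 on their brightest probe sets. Other probe sets were lower, at -0.051 and -0.45 for Rpl7 and at -0.18 and -0.28 for Rpl27. With 1 pool per group the difference between the subunits was not tested.

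Over the members as a whole, bright probe sets spread less than dim ones. More than 1 probe set was measured for 20 members. In 11 of them the values straddled 0, and in 0 they lay more than 1 log2 unit apart. These counts leave out probe sets under the floor on 1 array. A dim Rps10 probe set of that kind, at 90.1 in the Ad-PDK4 pool and 173.9 in the Ad-control pool, gave a bound of -0.79 or lower. The brightest Rps10 probe set gave 0.32. Over all 107 probe sets, the 64 with a mean signal of 10000 or more had an SD of 0.14, the 12 between 1000 and 10000 of 0.34, and the 12 measured ones under 1000 of 0.58, values that hold differences between genes as well as within them. Among probe sets measured on both arrays, those of Rps24 lay widest apart. Its 4 bright probe sets gave -0.11 to 0.012, and a dim one, at 129.4 in the Ad-PDK4 pool and 243.7 in the Ad-control pool, gave -0.90. Without _x_at and _s_at probe sets Rps24 is read from that dim probe set alone. In Rps10, the probe set at 3005 in the Ad-PDK4 pool and 4392 in the Ad-control pool gave -0.53, against 0.027 to 0.32 for the 4 bright ones. In Rpl13a, which also acts outside the ribosome in the control of inflammatory mRNAs, the probe set at 4788 in the Ad-PDK4 pool and 3192 in the Ad-control pool gave 0.60, and the brightest gave -0.11. The remaining Rpl13a probe sets gave 0.15 and 0.061, so only the brightest was below 0. Rpl35, with 5 measured probe sets between -0.042 and 0.063, and Rps27l, with 3 between 0.0089 and 0.084, lay close together.

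**Figure D3:**
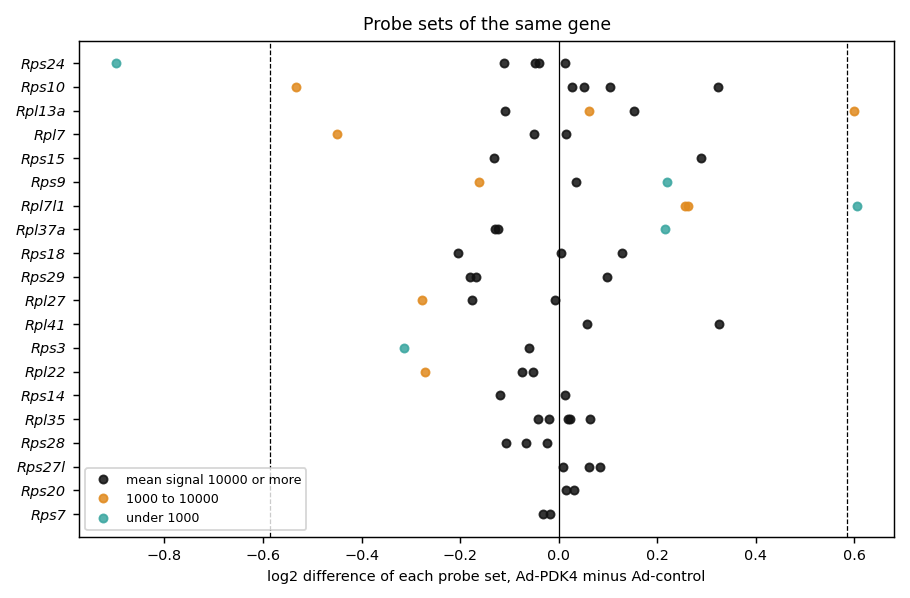
Log2 difference, Ad-PDK4 minus Ad-control (x axis), of every measured probe set of the 20 genes that have more than 1, coloured by mean signal; dashed lines mark 1.5-fold. Black points, at a signal of 10000 or more, stay between -0.21 and 0.32, and the points past or near the dashed lines, such as -0.90 in Rps24 and 0.60 in Rpl13a, are dimmer.

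For the rest of the translation machinery, the shares past 1.5-fold over all genes (9.21% upward and 5.2% downward) stand beside each count. The lists were chosen with earlier results of these data known. Of 20 measured mRNAs for elongation factors and other products with a terminal oligopyrimidine tract, 1 passed 1.5-fold upward and 0 downward, and the median was 0.036. Eif3k, an initiation factor subunit, gave 3522 in the Ad-PDK4 pool and 2367 in the Ad-control pool (0.59), followed by Nap1l1 (0.40), and Vim (-0.22) and Hnrnpa1 (-0.20) were the lowest. The elongation factor Eef1a1 gave 88533 in the Ad-PDK4 pool and 97178 in the Ad-control pool (-0.12). Of 22 other initiation factors and regulators, 1 was higher, Eif2b1 (0.62), and 1 lower, Eif2b5 (-0.72), both subunits of the exchange factor eIF2B, with a median of 0.094. Eif3m (0.30) and Eif4a2 (-0.47) came next.

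Ribosome biogenesis factors spread more widely (SD 0.39) than the initiation factors (0.28), but less than all measured genes (0.47). Of 55 measured on both arrays, 7 passed 1.5-fold upward, 3 downward and 45 neither way, and the median was 0.052. Nop58, a core protein of box C/D small nucleolar particles, gave 532.3 in the Ad-PDK4 pool and 245.9 in the Ad-control pool (1.13), and Noc4l gave 940.5 and 499.7 in the same order (0.93). Utp18 (-0.82) and Riok2 (-0.78), both of small subunit maturation, were the lowest. The shares are near those of all genes, 9.21% higher and 5.2% lower. Of 14 measured genes of RNA polymerase I and its factors, which make ribosomal RNA, 0 passed 1.5-fold upward and 2 downward (5.2% of all genes did), with a median of 0.062, from Tcof1 (-1.04) and Ttf1 (-0.61) to Taf1a (0.51) and Rrn3 (0.51).

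The list of regulators of ribosome synthesis held genes on either side. The MYC and mTORC1 list had 17 measured genes, of which 3 passed 1.5-fold upward (9.21% of all genes did) and 2 downward (5.2%), around a median of 0.081, and nothing particular to the list is read from so few genes. Mlst8, a subunit of mTORC1, gave 199.8 in the Ad-PDK4 pool and 107.4 in the Ad-control pool (0.91), and Tsc2, a brake on mTORC1, 537.4 and 311.5 in the same order (0.80). Deptor, an inhibitor of mTOR, gave 8406 in the Ad-PDK4 pool and 15607 in the Ad-control pool (-0.88), and Tsc1 gave -0.72. Myc itself gave 0.51. In the list for the p53 and MDM2 arm of the response to failed ribosome assembly, 3 of 7 measured genes passed 1.5-fold upward and 0 downward. The shares of all genes were 9.21% and 5.2%, and the median of the list was 0.48. A link of these values to ribosome assembly was not tested, and nothing particular to this list is read from so few genes. Cdkn1a gave 1252 in the Ad-PDK4 pool and 252.3 in the Ad-control pool (2.33) and Phlda3 0.91, while Mdm2 (-0.0043) and Mdm4 (0.060) were the lowest.

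**Figure D4:**
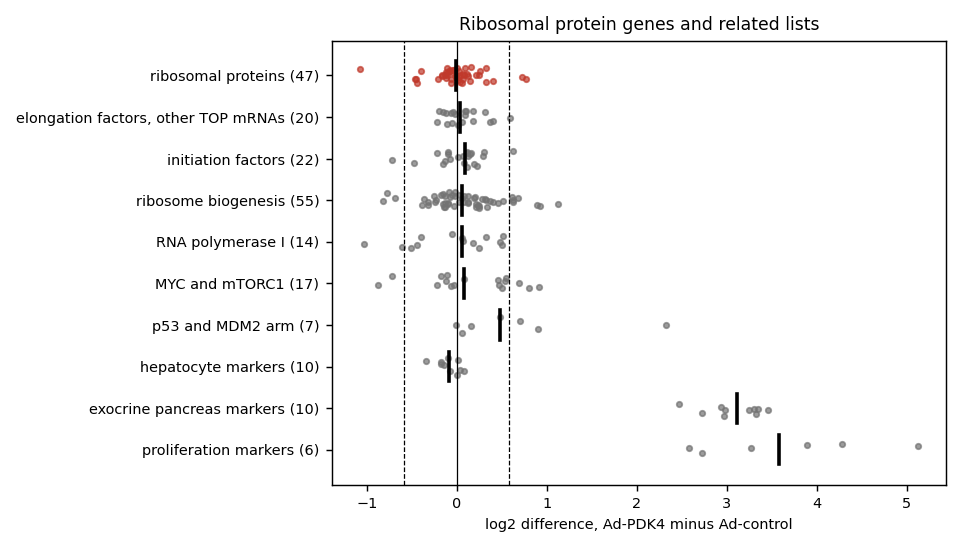
Log2 difference, Ad-PDK4 minus Ad-control (x axis), of each gene measured on both arrays, by list, with the number of genes in parentheses; black bars are medians and dashed lines mark 1.5-fold. The ribosomal protein genes (red) centre on -0.0085, and the pancreas and proliferation markers lie far to the right, with medians of 3.11 and 3.58.

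Markers of other tissues and of cell division differed between the pools. All 10 hepatocyte markers were measured and lay within 1.5-fold, with a median of -0.084 and a summed signal of 626392 in the Ad-PDK4 pool and 657972 in the Ad-control pool. They ran from Cps1 (-0.34) and Hnf4a (-0.18) to Apob (0.040) and Alb (0.079). All 10 exocrine pancreas markers were higher, from Cela1 (2.47) and Prss2 (2.72) to Cela3b (3.35) and Ctrb1 (3.46), with a summed signal of 84419 in the Ad-PDK4 pool and 10618 in the Ad-control pool. All 6 proliferation markers measured on both arrays were higher too (Top2a 2.59, Cdk1 2.73, Ccnb2 4.28 and Cdc20 5.13), with a summed signal over 9 genes of 18970 in the Ad-PDK4 pool and 1579 in the Ad-control pool. Skeletal muscle markers were 1.5-fold lower in 6 of 7 cases, from Tnnt3 (-1.44) and Myh1 (-1.23) to Tnni2 (-0.78) and Myh4 (-0.22). The sum over 8 muscle genes, measured or not, was 2330 in the Ad-PDK4 pool and 4401 in the Ad-control pool. Of 7 measured macrophage markers 2 were lower, Vsig4 (-1.19) and Clec4f (-1.13), and Adgre1 (0.21) and Cd68 (0.37) were the highest. Sums over 8 macrophage genes, measured or not, were 9137 in the Ad-PDK4 pool and 10246 in the Ad-control pool. Of 3 measured lymphocyte markers 0 passed 1.5-fold (Cd79b -0.47, Cd8a -0.061 and Ighm 0.18), and of the erythroid markers only Alas2 (-0.43) was measured. Over 8 lymphocyte genes, measured or not, the sums were 1072 in the Ad-PDK4 pool and 1123 in the Ad-control pool. Over 4 erythroid genes, measured or not, they were 1591 in the Ad-PDK4 pool and 2039 in the Ad-control pool. No marker on any of these lists was at 0, but the lowest signals of the arrays were 0.1 (Ad-PDK4) and 0.2 (Ad-control). Under the floor on both arrays were 4 lymphocyte markers, 3 erythroid markers and 1 skeletal muscle marker. The part of the pancreas and proliferation signal in the difference of Rpl22l1 was not tested.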

How the data were processed

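Biotin-labelled cRNA from 1 liver pool per group was hybridized to 1 Affymetrix-type array each. The authors' deposited table holds 1 linear signal intensity per probe set, and no source used here states the software or how probes were summarised. On both arrays the mean intensity, trimmed by 2% at each end, is 500.0, so every difference is relative to the rest of its array. Detection calls were not used here. Symbols came from the platform annotation (34945 probe sets with 1 symbol, 932 with several, which name no gene), and all 51 member symbols matched RefSeq (GRCm38.p6) by Entrez identifier. After 64 control probe sets were set aside, signals were put on the log2 scale, differences were centred on their median of -0.015, and genes below the floor on each array were given no difference. The 3′/5′ signal ratio was 5.46 (Ad-PDK4) and 4.88 (Ad-control) for beta-actin and 0.806 and 0.785 for Gapdh, in the same order.

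Members and lists were chosen with earlier results of these data known. Named were, in each subunit, the 6 brightest, 6 highest and 6 lowest members, all members past 1.5-fold, stalk proteins, Rpsa and paralogs with their partners, and of each other list the 2 highest and 2 lowest genes. Further members are named to account for all of them, and a few list genes (Eef1a1, Myc) were named after their values were seen. The alternatives were floors at the 30th and 70th percentile, no centring, loess centring (span 0.3), quantile normalization, the median over probe sets, no _x_at or _s_at probe sets, a fold of 2 and no Rps15a-ps6 or Rps19bp1. The calculations were tested on simulated data. Python 3.11.15, numpy 2.4.6, pandas 2.3.3 and statsmodels 0.14.6 were used. The number of arrays limits the precision.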

Additional observations from a re-analysis of the deposited data

How the results depend on the processing

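Under every floor and scaling tried, each of the 47 measured genes that still had a value moved from its main value by less than the probe set SD (0.35). At the 70th percentile floor 42 were measured on both arrays. Rps27 (-0.82) and Rpl39 (-0.15) were bounds there, with the Ad-PDK4 signal under the floor, and a bound cannot show how far a value moved. Without _x_at and _s_at probe sets 1 gene moved by more (Rps24, -0.90, read from its dim probe set). Loess centring gave medians of 0.083 for all members, 0.063 for the small and 0.097 for the large subunit, and quantile normalization 0.097, 0.073 and 0.12; the medians of all genes were 0.022 and 0.020 there. The number at least 1.5-fold lower was 2 at the 30th percentile floor (Rps15a-ps6 by its bound, beside Rps27) and 2 without _x_at and _s_at probe sets (Rps24 beside Rps27). With the higher floor, at the 70th percentile, 1 gene was higher (Rpl22l1), and 3 at the 30th (Rpl39l by its bound, beside Rpl22l1 and Rpl14) and 0 with a fold of 2 as the limit. No paired analysis was possible because each group has 1 array. Dim probe sets limit what can be said of Rpl12, Rpl14, Rpl39, Rps6, Rps19bp1, Rps25 and Rps27.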

Other observations

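A further 110 probe sets carry several symbols of which at least 1 is a ribosomal protein symbol, so they were not counted as members and name no gene. Of these, 100 were above the floor on both arrays, 1 was at least 1.5-fold higher, 1 at least 1.5-fold lower and 98 lay within 1.5-fold, with a median log2 difference of 0.011. All 71 with a mean signal of 10000 or more lay within 1.5-fold, between -0.50 and 0.33. The 107 member probe sets held 3.88% of the summed signal of the Ad-PDK4 array and 3.76% of that of the Ad-control array, and 1 of them was among the 100 brightest probe sets on each array. The 51 member genes lie on 17 chromosomes, with 2 on X (Rpl39 at -0.46 and Rps4x at 0.064).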
